A study of Mus musculus with 8 samples.

Results

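The 8 genes examined here encode epididymal proteins that coat or contact maturing sperm, namely Crisp1, Crisp4, Adam7, Adam28, Cst8, Cst11, Rnase9 and Rnase10. They were chosen by gene symbol, with earlier results of these data known, and all 8 of 8 were found among the 19348 genes of the table. Their RNA was measured by RNA-seq in liver and in epididymal white adipose tissue (eWAT, the abdominal fat attached to the epididymis) of male C57BL/6 mice aged 12 weeks. All mice were on a normal diet and had been fasted for 16 h. Mice labelled Crtc1-/- came from a CRISPR/Cas9 line made with a pair of guides, and their Crtc1+/+ littermates served as controls. Each tissue and genotype had 2 libraries, giving 8 in all, and each group is therefore a sample of 2.

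Crtc1, the targeted gene, was at 36.9 CPM (counts scaled to a library total of 1000000) in both Crtc1+/+ eWAT libraries and at 57.6 and 27.5 CPM in the Crtc1-/- eWAT libraries. The Crtc1+/+ liver libraries had 11.6 and 9.61 CPM, and those labelled Crtc1-/- had 22.1 and 18.6 CPM. The group labelled Crtc1-/- was not called lower in either tissue, although its eWAT replicate 2 lay below both Crtc1+/+ eWAT libraries, with log2 differences of 0.48 in eWAT (SE 0.37, adjusted p = 0.396) and 0.89 in liver (SE 0.27, adjusted p = 0.184) by edgeR's quasi-likelihood test. Counts were given per gene, so the targeted exons could not be looked at apart from the rest of the gene, and the genotypes below are those of the labels. Libraries held 16560087 to 19721478 counts, so that 3 counts, taken as the floor, corresponded to 0.152 to 0.181 CPM. Adipocyte markers took 0.199% and 0.315% of the counts in the Crtc1+/+ eWAT libraries against 3.66% and 1.65% in those labelled Crtc1-/-. Hepatocyte markers took 9.22% of the counts in eWAT labelled Crtc1-/- replicate 2, against 0.0670% to 0.552% in the other eWAT libraries and 17% to 21.4% in liver. The libraries are of bulk tissue, in which fewer cells of a type and less RNA per cell cannot be told apart.

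The epididymis is a long coiled duct in which sperm leaving the testis become motile and able to fertilize. Its epithelium secretes proteins into the lumen in a segment-specific order, from the initial segment through the caput and corpus to the cauda, and many of these bind the sperm surface. CRISP1 and CRISP4 are cysteine-rich secretory proteins that associate with sperm during transit. ADAM7 and ADAM28 belong to the membrane-anchored metalloprotease-disintegrin family, and Adam28 is also expressed by lymphocytes. CST8 (also called CRES) and CST11 are cystatins of a reproductive subgroup that lacks some of the sites by which other cystatins inhibit proteases. RNASE9 and RNASE10 are epididymal members of the RNase A family, and RNASE10 is a product of the proximal duct.

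6 of the 8 genes lie in pairs in the mouse genome (GENCODE annotation of GRCm38). On chromosome 14, Rnase10 (chr14:51007751-51010758, plus strand) and Rnase9 (chr14:51038459-51041869, minus strand) are 27700 bp apart with 0 protein-coding genes between them. Further along the same chromosome, Adam7 (chr14:68497336-68533741, minus strand) and Adam28 (chr14:68606027-68655842, minus strand) are 72285 bp apart, with 1 protein-coding gene, Adamdec1, between them. On chromosome 2, Cst11 (chr2:148768609-148771497, minus strand) and Cst8 (chr2:148798785-148805595, plus strand) are 27287 bp apart with 2 protein-coding genes between them, 1 of them the cystatin Cst12. Crisp1 (chr17:40293758-40319207, minus strand) and Crisp4 (chr1:18115191-18145902, minus strand) are on different chromosomes, and Crisp1 neighbours Crisp2 and Crisp3.

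Promoter sequences were matched by gene ID for 5 of the 8 genes (RefSeq, GRCm38.p6), namely Crisp1, Crisp4, Cst8, Rnase9 and Rnase10. 3 are shown because the genes differ most in how they behaved below: Crisp1 kept counts in the eWAT library labelled Crtc1-/- replicate 1, Crisp4 had 0 counts in both such libraries, and Rnase10 was among the most abundant. Each is the 250 bases before the transcription start, 5′ to 3′ on the gene's strand. Capitals mark AGAACA or its complement TGTTCT (the half-site bound by androgen and glucocorticoid receptors), AGGAAG or CTTCCT (an ETS-type core) and TATAAA or TTTATA. The windows lie at chr17:40319208-40319457 (Crisp1, minus strand), chr1:18145903-18146152 (Crisp4, minus strand) and chr14:51007501-51007750 (Rnase10, plus strand).
Crisp1: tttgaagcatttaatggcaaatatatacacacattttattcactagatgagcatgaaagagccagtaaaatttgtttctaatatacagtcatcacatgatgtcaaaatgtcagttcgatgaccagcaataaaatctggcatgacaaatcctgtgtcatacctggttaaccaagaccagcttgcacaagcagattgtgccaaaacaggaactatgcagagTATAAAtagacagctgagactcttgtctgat
Crisp4: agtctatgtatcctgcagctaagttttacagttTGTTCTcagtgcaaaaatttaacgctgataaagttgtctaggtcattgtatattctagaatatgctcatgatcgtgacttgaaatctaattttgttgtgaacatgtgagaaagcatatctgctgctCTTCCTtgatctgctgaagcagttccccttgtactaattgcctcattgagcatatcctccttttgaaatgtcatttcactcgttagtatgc
Rnase10: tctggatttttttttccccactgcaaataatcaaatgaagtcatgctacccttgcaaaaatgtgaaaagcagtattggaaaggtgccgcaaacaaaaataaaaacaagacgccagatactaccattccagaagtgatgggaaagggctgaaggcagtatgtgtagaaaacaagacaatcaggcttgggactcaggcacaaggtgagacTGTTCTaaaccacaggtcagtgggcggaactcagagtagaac
The Crisp1 window held TATAAA 31 bases before the start and neither of the other motifs. The Crisp4 window held TGTTCT 217 bases and CTTCCT 91 bases before the start, and the printed Rnase10 window held TGTTCT 42 bases before its start. RefSeq gives Rnase10 another start, whose window (chr14:51007679-51007928, not printed) held the half-site 220 and 183 bases and CTTCCT 133 bases before it. The Cst8 and Rnase9 windows, also not printed, held none of the 3 motifs. Both strands were searched, and of 32851 RefSeq promoter windows 16.1% held the receptor half-site, 29.5% the ETS-type core and 12.4% the TATA sequence. A match is a description of letters and not of a bound site.

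All 8 genes were abundant in the Crtc1+/+ eWAT libraries, where they summed to 1.41% of all counts in replicate 1 and 1.93% in replicate 2 (Wilson 95% intervals 1.40% to 1.41% and 1.92% to 1.93%, covering counting error only). Caput markers took 6.26% and 7.24% of the counts in the same libraries. Cst11, a cystatin of the proximal caput, was at 4497 and 4396 CPM, and its neighbour Cst8 at 1198 and 1243 CPM. Rnase10 was at 3092 and 3759 CPM and Rnase9 at 1088 and 1548 CPM. Replicates lay closest in the cystatins, and the means of these 4 genes were 4447 ± 71.6, 1221 ± 31.5, 3426 ± 472 and 1318 ± 326 CPM for Cst11, Cst8, Rnase10 and Rnase9 (SD, n = 2). Adam7, a gene of the caput epithelium, was at 2303 and 5192 CPM, and Adam28 at 726 and 1189 CPM. Crisp1 was at 1083 and 1793 CPM and Crisp4 at 94.9 and 135 CPM. The ADAM, CRISP and RNase genes were all higher in replicate 2, and Adam7 had the widest spread relative to its mean (3748 ± 2043 CPM, SD, n = 2).

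**Figure D1:**
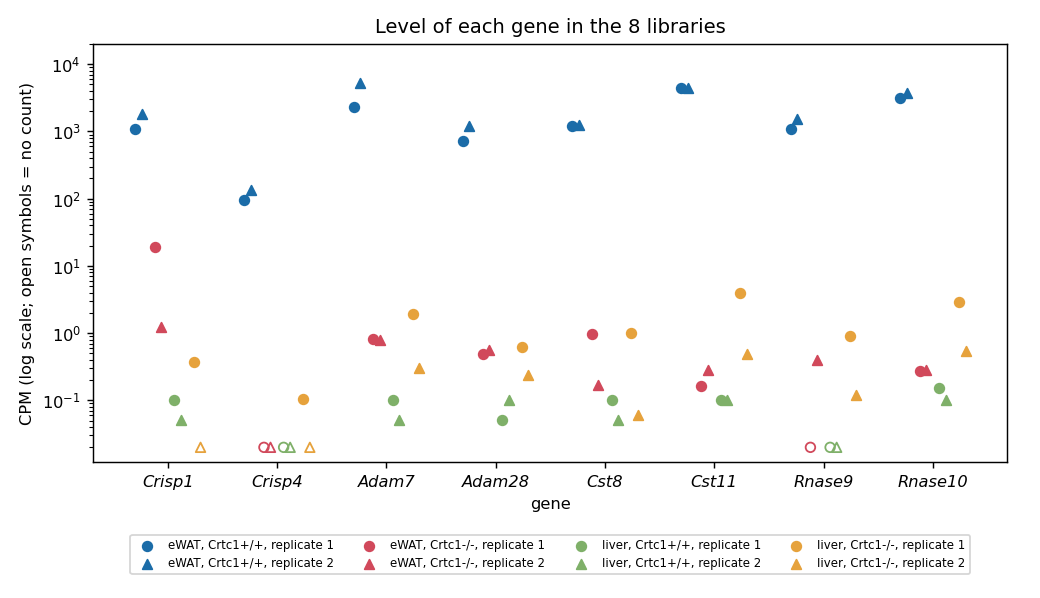
CPM of the 8 genes in each of the 8 libraries, by tissue and labelled genotype, on a log axis, with open symbols at the bottom for libraries with no count. Each symbol is 1 library, and the Crtc1+/+ eWAT points lie at 94.9 to 5192 CPM, far above the points of the other groups.

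Levels between genes can be compared only per transcript length, as FPKM (fragments per kilobase of transcript, scaled to the library total). Cst11 led with 9757 ± 62.3 FPKM (SD, n = 2) in Crtc1+/+ eWAT, rank 6 of 19348 genes by mean FPKM. Rnase10 (2357 ± 284 FPKM, rank 42) and Cst8 (2190 ± 74.6 FPKM, rank 50) came next, and their replicates overlapped. Rnase9 (1274 ± 320 FPKM), Crisp1 (1135 ± 399 FPKM) and Adam7 (1130 ± 617 FPKM) followed at ranks 100, 118 and 120, and their replicates also overlapped. Adam28 (318 ± 97.5 FPKM, rank 342) and Crisp4 (83.9 ± 17 FPKM, rank 1117) were the lowest of the 8, and neither overlapped a neighbour in that order.

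In eWAT labelled Crtc1-/-, 7 of the 8 genes were under 1 CPM in both libraries, and Crisp1 was not. Crisp4 had 0 counts in both libraries. Cst11 was at 0.162 and 0.284 CPM, Rnase10 at 0.270 and 0.284 CPM, and Rnase9 at 0 and 0.397 CPM. Adam7 was at 0.811 and 0.794 CPM, Adam28 at 0.486 and 0.567 CPM, and Cst8 at 0.973 and 0.170 CPM. Several of these values lie at or just above the floor of 3 counts. Crisp1 was at 18.8 CPM in replicate 1 and 1.25 CPM in replicate 2.

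All 8 genes were lower in eWAT labelled Crtc1-/- by edgeR's quasi-likelihood test at an adjusted p under 0.05, where 5.53% of the 15391 genes tested were called lower and 6.65% higher. For each of them both libraries labelled Crtc1-/- lay below both Crtc1+/+ libraries, but the share of all genes separated in this way was not counted. Over all genes 1023 were called higher and 851 lower, a split that became 586 and 1071 when libraries were scaled by their totals instead of TMM (trimmed mean of M values). Cst11 fell by 13.92 on the log2 scale (SE 0.84, adjusted p = 0.0119) and its neighbour Cst8 by 10.79 (SE 0.98, adjusted p = 0.0162). Rnase10 fell by 13.25 (SE 0.71, adjusted p = 0.0119) and Rnase9 by 12.30 (SE 1.59, adjusted p = 0.0205). Of these 4 genes, Cst8 kept the most counts, 18 in replicate 1 and 3 in replicate 2. Adam7 fell by 11.87 (SE 0.89, adjusted p = 0.0153) and Adam28 by 10.50 (SE 0.64, adjusted p = 0.0119). Crisp4, with no count, was at least 1381-fold lower, taking 3 counts over the group as the floor. Crisp1 fell by 6.97 on the log2 scale, the least of the 8 (SE 1.43, adjusted p = 0.0440). The median of the 8 log2 fold changes was -12.08, or -11.33 with Crisp4 at its bound, beside a median of -0.05 over all genes tested. Leaving out either Crtc1+/+ eWAT library took the count of called genes from 8 to 0, with every direction kept. The same test then called 0 genes of any kind, with 3441 genes at an unadjusted p under 0.05 without replicate 1 and 2568 without replicate 2. Leaving out either library labelled Crtc1-/- left 8 of 8 called.

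**Figure D2:**
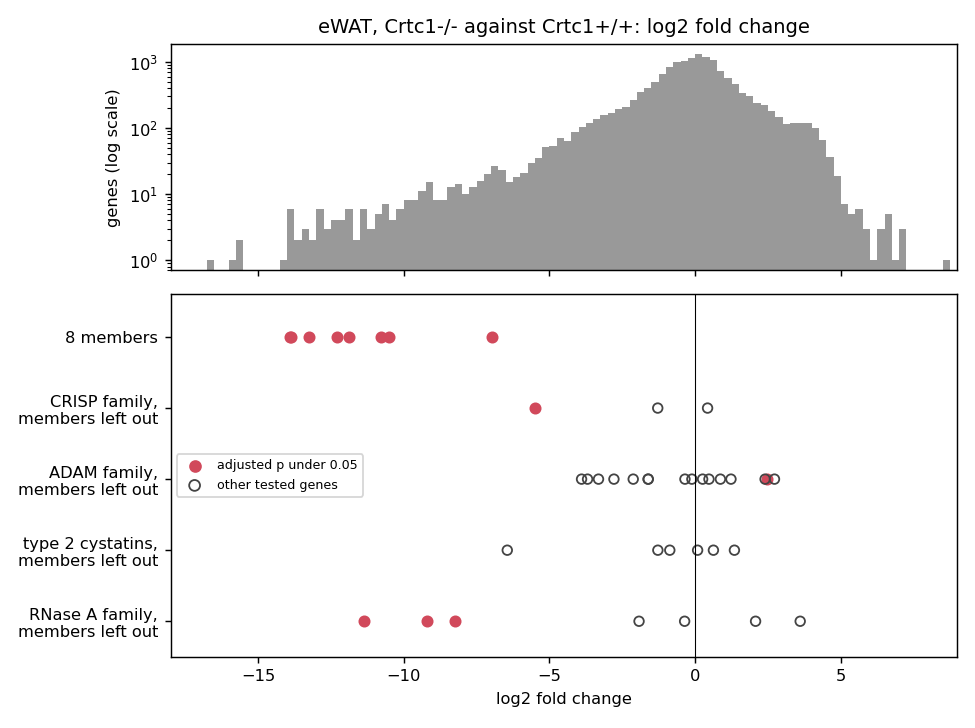
Upper panel, number of genes (log axis) by log2 fold change in eWAT, Crtc1-/- against Crtc1+/+, for the 15391 genes tested. Lower panel, the 8 genes and the other genes of their 4 families, with filled points for an adjusted p under 0.05. The 8 lie from -13.92 to -6.97, while the median of all genes is -0.05.

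Ordered from the largest fitted fall, Cst11 ranked 7, Rnase10 16, Rnase9 30, Adam7 39, Cst8 56, Adam28 65 and Crisp1 223 of the genes tested, while Crisp4, with 0 counts, could not be placed. The order still counts such genes, Crisp4 at a fitted rank of 8 and Lcn6 among them, although their falls are not measured. The log2 change of Rnase9, with 0 counts in replicate 1, was -11.23 without that library and -17.52 without replicate 2. As pooled CPM, the Crtc1+/+ eWAT libraries exceeded those labelled Crtc1-/- 20090-fold for Cst11 (exact 95% interval 10200 to 46530) and 12360-fold for Rnase10 (6718 to 25770). The ratio was 4635 for Adam7 (3227 to 6921), 2100 for Cst8 (1373 to 3392) and 1813 for Adam28 (1161 to 3011). It was 140 for Crisp1 (126 to 155), where 348 of the 370 counts in libraries labelled Crtc1-/- came from replicate 1. The log2 change of Crisp1 was -9.72 without that library and -6.13 without replicate 2. The intervals of the ratios cover counting error only, not the spread between mice.

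Markers of the epididymal segments moved together with these genes. The initial segment list (Lcn8, Lcn9, Ros1, Ovch2) had 4 of 4 genes called lower (median -13.01 on the log2 scale), and the caput list (Gpx5, Lcn5, Lcn6, Spag11b) also had 4 of 4 (median -13.58). Of the distal and vas deferens list, Ces5a (log2 fold change -7.32, adjusted p = 0.0320) and Akr1b7 (-8.43, adjusted p = 0.0305) were called lower, while Cd52 was not (-4.37, adjusted p = 0.0562). All 3 genes of the efferent duct and clear cell list were called lower, namely Adgrg2 (-4.86), Foxi1 (-10.12) and Atp6v1b1 (-7.14). Of 3 sperm and testis genes 0 were called by edgeR's quasi-likelihood test, although 3 had an unadjusted p under 0.05, as did 5131 of the 15391 genes tested. They ran from -4.13 for Prm2 (adjusted p = 0.0763) to -2.98 for Prm1 (adjusted p = 0.121). The seminal vesicle list had 0 of 2 tested genes called and 0 at an unadjusted p under 0.05. Of the adipocyte list 5 of 7 genes were called higher, with a median log2 fold change of 3.73. The hepatocyte list had 0 of 7 called, 0 at an unadjusted p under 0.05, and a median of 4.37, with the high counts in replicate 2. The part of epididymal tissue content in the fall of the 8 genes was not tested.

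In eWAT labelled Crtc1-/- replicate 1, Crisp1 had more counts than the other 7 genes. Crisp1 had 348 counts there and 22 in replicate 2, a CPM ratio of 15.1 (exact 95% interval 9.80 to 24.4), whereas Adam7 had 15 and 14 counts, a ratio of 1.02 (0.459 to 2.28). Cst8 lay between, with 18 and 3 counts and a ratio of 5.72 (1.67 to 30.3), an interval that overlapped that of Crisp1. Relative to its mean in Crtc1+/+ eWAT, Crisp1 was at 1.31% in replicate 1 and 0.0868% in replicate 2. The other 7 genes were at 0% to 0.0797% and 0% to 0.0592%. Some genes of the same tissue shared the Crisp1 pattern: Ces5a was at 0.991% in replicate 1 with a replicate ratio of 11.2 (6.60 to 20.4), and the cystatin Cst12 was at 1.97% and then 0%. Others were higher still in replicate 1, at 4.72% for the efferent duct gene Adgrg2, 7.32% for Cd52, and 8.98% to 19.1% for the sperm genes Prm1, Prm2 and Tnp1. Cd52 also had 80 to 328 counts in every liver library, so its counts are not specific to the duct. Initial segment and caput markers were at 0.00996% or below in this library.

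**Figure D3:**
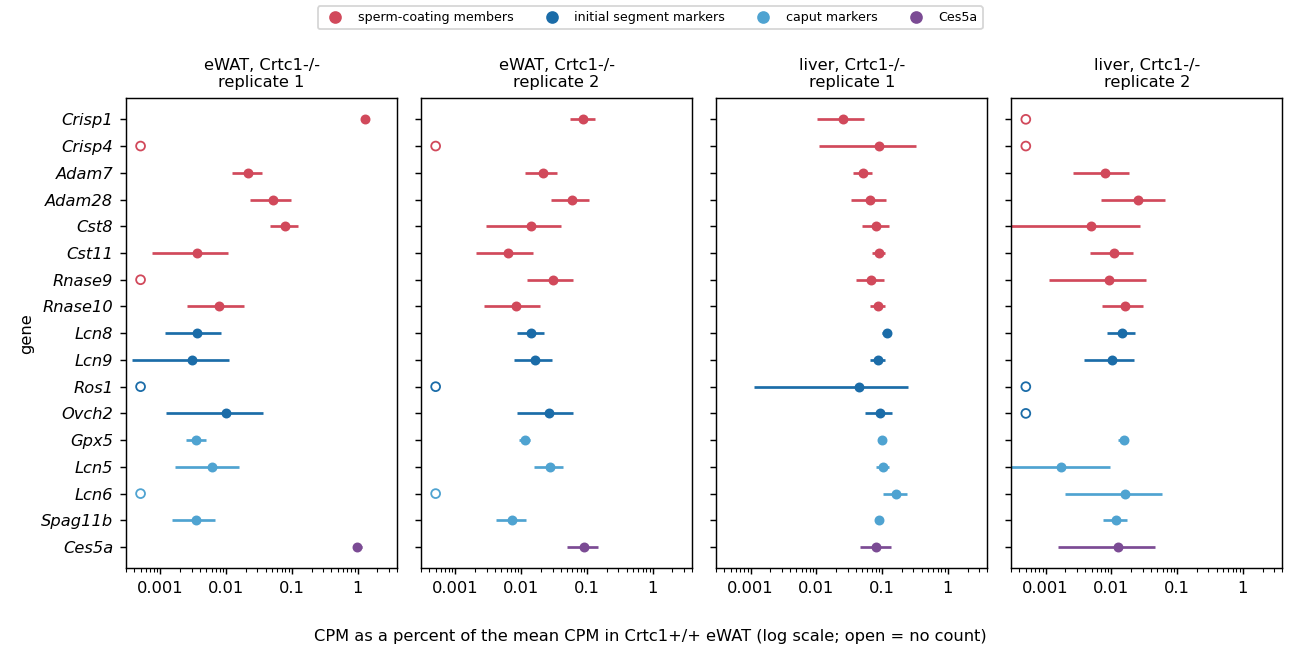
Level in the low libraries as a percent of the Crtc1+/+ eWAT mean CPM, on a log axis, for the 8 genes, the initial segment and caput markers and Ces5a in the 4 libraries labelled Crtc1-/-. Bars are exact 95% intervals of the counts and open symbols mark no count. Crisp1 reaches 1.31% in eWAT labelled Crtc1-/- replicate 1, whereas the other 7 genes there are at 0.0797% or below.

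Crisp1 accordingly took 87.4% of the 398 counts of the 8 genes in eWAT labelled Crtc1-/- replicate 1 (exact 95% interval 83.8% to 90.5%), and 33.3% of 66 counts in replicate 2 (22.2% to 46.0%). In the Crtc1+/+ eWAT libraries it took 7.69% and 9.31%. Cst11, the largest share in Crtc1+/+ replicate 1 at 31.9%, took 0.754% in the library labelled Crtc1-/- replicate 1 and 7.58% in replicate 2. The exact interval of a gene's share in the library labelled Crtc1-/- replicate 1 held its share in Crtc1+/+ replicate 1 for 1 of 8 genes, Crisp4 at 0 counts, and the interval in replicate 2 did so for 4 of 8. Intervals are wider with 66 counts than with 398, and a large Crisp1 share lowers the others. These numbers therefore do not compare the 2 replicates.

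**Figure D4:**
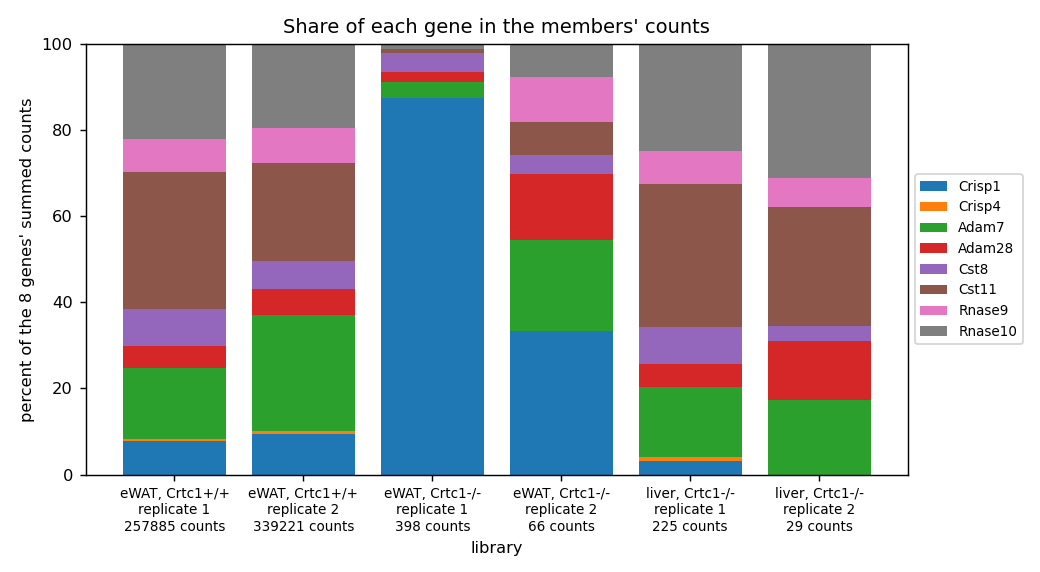
Share of the summed counts of the 8 genes taken by each gene (percent, stacked bars) in the eWAT libraries and the liver libraries labelled Crtc1-/-, with the summed count under each bar. Crisp1 takes 87.4% in eWAT labelled Crtc1-/- replicate 1 against 7.69% and 9.31% in the Crtc1+/+ eWAT libraries.

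Liver is not known as a source of these proteins. The Crtc1+/+ liver libraries held only 12 and 9 counts over the 8 genes together. Crisp4 and Rnase9 had 0 counts in both, and no gene exceeded 3 counts in either. The liver libraries labelled Crtc1-/- held 225 and 29 counts. In replicate 1, Cst11 was at 3.94 CPM (75 counts), Rnase10 at 2.94 CPM (56 counts), Adam7 at 1.95 CPM (37 counts) and Cst8 at 0.999 CPM (19 counts). In replicate 2 the same genes were at 0.483, 0.544, 0.302 and 0.0604 CPM. Replicate 1 was again the higher for Rnase9 (0.894 and 0.121 CPM), Adam28 (0.631 and 0.242 CPM), Crisp1 (0.368 and 0 CPM) and Crisp4 (0.105 and 0 CPM). The livers labelled Crtc1-/- thus differed from each other, by 8.16 times for Cst11, 5.42 times for Rnase10 and 6.44 times for Adam7. Only Rnase10 passed the filter on low counts in liver, and it was not called (log2 fold change 3.68, SE 0.90, adjusted p = 0.134, edgeR's quasi-likelihood test). Of 11707 genes tested in liver, 0.0598% were called higher and 0.0256% lower. Without the filter 3 of the 8 genes were called higher, and without liver labelled Crtc1-/- replicate 2 it was 4, in fits that called 176 of 15905 and 133 of 12015 genes higher over all genes.

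In liver labelled Crtc1-/- replicate 1 the 8 genes were at 0.0519% to 0.0914% of their Crtc1+/+ eWAT mean, apart from Crisp1 at 0.0256%. The highest, Crisp4, rests on 2 counts (exact 95% interval 0.0111% to 0.330%) and Crisp1 on 7 (0.0103% to 0.0527%). Caput and initial segment markers were at comparable percentages there, with Spag11b at 0.0896%, Gpx5 at 0.101%, Lcn8 at 0.117% and Lcn6 at 0.161%. Cst11 took 33.3% of the 225 counts (exact 95% interval 27.2% to 39.9%), Rnase10 24.9% (19.4% to 31.1%) and Adam7 16.4% (11.9% to 22.0%). The exact interval of a gene's share held that in Crtc1+/+ eWAT replicate 1 for 7 of 8 genes, all but Crisp1, and that in replicate 2 for 5 of 8. In the other liver libraries, with 12, 9 and 29 counts, the wide intervals held 8 of 8. The number held thus depends on the summed count. The source of these counts in liver was not tested.

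Between tissues, all 8 genes were higher in Crtc1+/+ eWAT than in Crtc1+/+ liver, in a comparison where 35% of 15587 genes were called higher and 19.8% lower. Cst11 and Adam7 differed by 13.96 and 14.11 on the log2 scale, and their pooled CPM ratios were 43690 (exact 95% interval 17060 to 160400) and 48720 (16670 to 236300). Against 0 counts in liver, Crisp4 was at least 1502-fold and Rnase9 at least 17205-fold higher. Adjusted p-values (edgeR's quasi-likelihood test) ran from 0.000438 to 0.00257 over the 8 genes, and the median log2 fold change was 13.36, or 13 with both genes at their bound, beside 0.61 over all genes. In libraries labelled Crtc1-/-, 18.9% of genes were called higher and 8.88% lower in eWAT. Of the 8, 2 were called lower in eWAT by the same test: Cst11 (log2 difference -4.37, SE 1.03, adjusted p = 0.0231) and Rnase10 (-3.75, SE 0.83, adjusted p = 0.0194). Cst11 had 3 and 5 counts in these eWAT libraries against 75 and 8 in liver, and Rnase10 had 5 and 5 against 56 and 9. Cst11 did not pass the filter on liver alone. It was tested because the filter covered all 8 libraries, Crtc1+/+ eWAT among them. The calls rest on these few counts, and no conclusion is drawn from them. Crisp1 pointed the other way but was not called (4.36, SE 1.40, adjusted p = 0.0563). Neither the Cst11 nor the Rnase10 call held without eWAT or liver labelled Crtc1-/- replicate 1, fits that leave 1 library in a group. Over the alternative fits the log2 difference ran from -5.2 to -2.12 for Cst11 and from -4.51 to -1.38 for Rnase10. Liver and eWAT came from the same 2 mice of each genotype, but which libraries share a mouse is not stated. If equal numbers mark 1 mouse, the fit with mouse as a replicate block called only Crisp1 (4.61, adjusted p = 0.0183), with Cst11 at an adjusted p of 0.0793 and Rnase10 at 0.0534. These tissue and genotype comparisons share libraries.

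A test of the interaction asked whether the genotype difference itself differed between eWAT and liver. It called 7 of the 8 genes lower in the eWAT direction, beside 3.16% of genes called lower and 3.78% called higher over all genes. Of the 8, only Rnase10 passed the filter on liver alone. The others were tested because the filter covered all 8 libraries, with Crtc1+/+ eWAT among them. No gene of the 8 exceeded 3 counts in a Crtc1+/+ liver library, so the calls are not a result separate from the fall in eWAT. Crisp1 was the 1 not called (-8.37, SE 2.20, adjusted p = 0.0666, edgeR's quasi-likelihood test). With the same block by mouse number, Crisp1 was called (adjusted p = 0.0395) while Crisp4 (adjusted p = 0.0533) and Rnase9 (adjusted p = 0.0759) were not. Fewer of the 8 were called without either Crtc1+/+ liver library or without liver labelled Crtc1-/- replicate 1. These fits leave 1 library in a group, so sizes are given. Without Crtc1+/+ liver replicate 1 the log2 differences were -18.30 for Cst11, -16.25 for Adam7 and -12.56 for Adam28. Without Crtc1+/+ liver replicate 2 they were -18.34, -15.34 and -13.55. Without liver labelled Crtc1-/- replicate 1 they were -16.08, -13.78 and -12.08, while Crisp1 was at -2.71.

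Because the 8 genes are abundant only in the Crtc1+/+ eWAT libraries, those libraries were set side by side to ask how the genes varied between them. The CPM of replicate 2 over replicate 1 was highest for Adam7 at 2.25 (exact 95% interval 2.23 to 2.28). Crisp1 followed at 1.66 (1.63 to 1.69) and Adam28 at 1.64 (1.6 to 1.67). Crisp4 and Rnase9 were similar, at 1.43 (1.34 to 1.52) and 1.42 (1.40 to 1.45). Rnase10 was at 1.22 (1.20 to 1.23), and Cst8 at 1.04 (1.02 to 1.06) and Cst11 at 0.978 (0.968 to 0.987) were close to equal. The cystatins differed least between the libraries, and Adam7 the most. 7 of the 8 ratios were above 1, and with TMM scaling all 8 were, since Cst11 became 1.01. The share of all genes with a ratio above 1 was not counted, so a shift of these genes cannot be told from a general one. These are differences between 2 libraries with intervals for counting error only, and no test of replicate spread is possible.

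**Figure D5:**
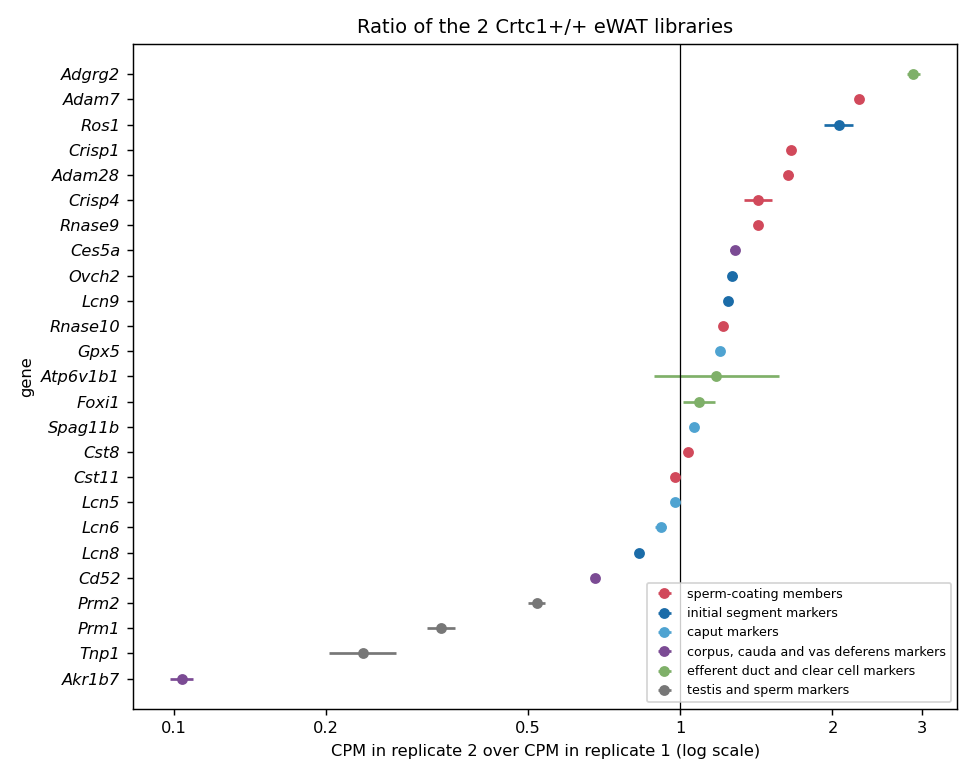
CPM ratio of Crtc1+/+ eWAT replicate 2 over replicate 1 on a log axis, with exact 95% intervals of the counts, for the 8 genes and for segment, sperm and other marker genes. The 8 genes span 0.978 (Cst11) to 2.25 (Adam7), and the initial segment, caput and distal markers each spread on both sides of 1.

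The markers of each segment were spread around 1. Initial segment genes were at 0.831 (Lcn8), 1.24 (Lcn9), 1.27 (Ovch2) and 2.06 (Ros1), and caput genes at 0.915 (Lcn6), 0.976 (Lcn5), 1.07 (Spag11b) and 1.20 (Gpx5). Of the distal genes, Ces5a was at 1.28, Cd52, which also had counts in every liver library, at 0.679 and Akr1b7, an enzyme of the vas deferens, at 0.104. The ratios of the initial segment, caput and distal lists overlapped each other and those of the 8 genes. The clear cell genes Foxi1 and Atp6v1b1 were at 1.09 and 1.18, and the efferent duct receptor gene Adgrg2 was at 2.89, above all 8 genes. Sperm genes were lower in replicate 2, at 0.337 for Prm1, 0.521 for Prm2 and 0.237 for Tnp1. Adipocyte genes were all higher in replicate 2, from 1.22 (Cidec) to 4.86 (Plin1). Hepatocyte genes were all lower, from 0.0619 (Apoa2) to 0.296 (Fga). The B cell genes Cd79a and Ms4a1 were higher in replicate 1 of the Crtc1+/+ eWAT libraries, with 564 and 5 counts of Cd79a and 33 and 0 of Ms4a1. Seminal vesicle genes were at 50 counts or below in these libraries, and Svs4 and Svs5 reached 123 and 108 counts in eWAT labelled Crtc1-/- replicate 2.

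The other genes of the same 4 families were examined to set the 8 beside their relatives. Of 3 tested CRISP family genes 1 was called lower in eWAT labelled Crtc1-/-, the sperm and testis gene Crisp2 (log2 fold change -5.51, SE 0.73, adjusted p = 0.0209). It had 523 and 353 counts in Crtc1+/+ eWAT and 13 and 3 in eWAT labelled Crtc1-/-. Crispld2 and Crispld1 were at 0.43 and -1.28 and were not called. Of 16 tested ADAM genes 0 were called lower and 1 higher, Adam15 (2.48, SE 0.46, adjusted p = 0.0360, edgeR's quasi-likelihood test). The family ran from -3.90 to 2.72 with a median of -0.23, above the values of Adam7 and Adam28, and 8 of the 16 had an unadjusted p under 0.05, beside 5131 of all 15391 genes. Adam10 was at -2.13 (adjusted p = 0.0655) and Adam9 at -1.61.

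Of 6 tested cystatins 0 were called by edgeR's quasi-likelihood test, with 1 at an unadjusted p under 0.05, and their median log2 fold change was -0.39. Cst12, which lies between Cst11 and Cst8, had 2563 and 2745 counts in Crtc1+/+ eWAT and 54 and 0 in eWAT labelled Crtc1-/- (-6.45, SE 1.63, adjusted p = 0.0655). Cst3, the widely expressed cystatin C gene, was at 0.63, and Cst9 was at -1.28. Of 7 tested RNase A genes 3 were called lower. All 7 lie on chromosome 14 with Rnase9 and Rnase10, and the 4 not called lower (Rnase4, Ang, Rnase6 and Rnase1) lie between Rnase12 and Rnase13. Rnase13 was at -11.36 (SE 0.46, adjusted p = 0.0114), with 6635 and 7056 counts in Crtc1+/+ eWAT and 2 in each library labelled Crtc1-/-. Rnase12 was at -9.21 (SE 1.40, adjusted p = 0.0263) and Rnase11 at -8.25 (SE 0.95, adjusted p = 0.0184). Rnase4, a liver-expressed RNase, was at 2.07 and was not called (adjusted p = 0.137).

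Between the Crtc1+/+ eWAT libraries, 15 ADAM relatives with at least 100 summed counts had replicate ratios of 0.0913 to 2.65 with a median of 0.490, and 12 of them were lower in replicate 2. Adam7 and Adam28, at 2.25 and 1.64, were above 1, as were the relatives Adam9 (2.65), Adam10 (2.52) and Adam17 (1.44). The share of all genes lower in replicate 2 was not counted. The 3 CRISP relatives ran from 0.702 to 1.33, the 4 cystatins from 0.0638 to 1.11 and the 7 RNase A relatives from 0.258 to 1.24.

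Over the 8 libraries, the genes whose log2 CPM (prior count 2) was most like each of the 8, as Pearson's r over n = 8 among 14313 genes, are given as a description. All of these genes share the same 8 libraries and the gap between Crtc1+/+ eWAT and the rest. For Cst11 these were Lcn10, Teddm1a and Lcn8, and for Rnase10 Ly6g5c, Defb25 and Lcn10. For Adam7 they were 9230104L09Rik, Wfdc13 and Gm1110, and for Rnase9 Defb23, 9230110F15Rik and Gm1110. The closest to Adam28 were Defb12, Ido1 and Spag11a, to Cst8 Defb37, Ptpn5 and Muc5b, and to Crisp4 Gm5916, Tfap2c and Gm6040. Crisp1 differed from the rest, with Nectin4 (r = 0.998), Ckap2 and Cand2 (both r = 0.997), and Nectin4 had 603 and 935 counts in Crtc1+/+ eWAT and 52 and 9 in eWAT labelled Crtc1-/-.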

How the data were processed

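RNA-seq libraries of liver and eWAT, 2 for each tissue and labelled genotype, were analysed. The authors deposited estimated counts per gene, not normalized, and the authors' FPKM, which scale fragments by transcript length and library total. The submitters' processing notes name GRCm38.p6, HISAT and Bowtie2 with no version. The counting tool and annotation are not given in the sources used here, so a gene with near-identical copies depends on how reads were shared. Counts were rounded, filtered with filterByExpr, scaled by TMM and tested with edgeR 4.0.16 (R 4.3.3), whose quasi-likelihood p-values were adjusted over every gene tested by Benjamini and Hochberg's method. Tests within a tissue used its 4 libraries, and tissue and interaction tests used all 8. CPM divide counts by the library total. Alternatives were DESeq2 1.42.0, limma 3.58.1 on log2 FPKM, other scalings and filters, and leaving out each replicate. Libraries held 16560087 to 19721478 counts, and 2 libraries a group limit the precision. Liver and eWAT were taken from the same 2 mice of each genotype, but no source used here says that equal numbers mark 1 mouse. The 8 genes and all lists were chosen with earlier results of these data known. Genes named were the 8, the marker lists, in each family the 3 highest by FPKM in Crtc1+/+ eWAT and those called, and the 3 most like each of the 8. 1 gene of the marker lists is not reported here.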

Additional observations from a re-analysis of the deposited data

Results flagged for a closer look

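For 7 of the 8 genes the genotype difference in eWAT differed from that in liver by the interaction of tissue and genotype, at an adjusted p under 0.05 with edgeR's quasi-likelihood test. The difference, as the log2 effect in eWAT minus that in liver, was -12.98 for Adam28, -13.63 for Cst8, -15.72 for Adam7, -17.02 for Rnase10, -17.31 for Crisp4, -18.33 for Cst11 and -19.32 for Rnase9. Values for genes with groups at 0 counts, Crisp4 and Rnase9, depend on the prior count and are not bounds. Liver labelled Crtc1-/- replicate 1 held 225 of the counts of the 8 genes against 9 to 29 in the other liver libraries, so the liver side rests on few counts. Only Rnase10 passed the filter on liver alone, so these differences are not a result separate from the fall in eWAT.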

How the results depend on the processing

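In eWAT, 8 of 8 genes stayed called lower with DESeq2, limma, other scalings and other filters. With the replicate block 0 were called, as 0 genes of any kind were, with 5419 at an unadjusted p under 0.05. Correlations of same-numbered deviations were 0.00546 between genotypes in eWAT and 0.0569 in liver, and between tissues 0.161 in Crtc1+/+ and 0.0374 in Crtc1-/-, so pairing by number was not established. Leaving out replicates gave 0 to 8 calls, 0 without either Crtc1+/+ eWAT library, where the fit also had fewer samples. In liver the count was 3 with no filter and 0 to 4 with a replicate left out. In libraries labelled Crtc1-/-, eWAT against liver gave 0 with limma on log2(FPKM + 1) and 1 with the replicate block by mouse number. Calls in this tissue comparison and in the interaction changed with a replicate left out, which leaves 1 library in a group. Of the values in that tissue comparison that changed sign, none was called: Adam28 was 0.25 and Cst8 0.09 with library-size scaling, and without liver labelled Crtc1-/- replicate 1 Adam7 was 0.34, Adam28 0.06 and Cst8 1.98 (leaving out each library in turn gave -2.4 to 0.34, -1.37 to 0.06 and -2.51 to 1.98). The Cst11 replicate ratio became 1.01 with TMM scaling. Scaling moved the median over all genes in eWAT (log2) from -0.05 to -0.35 with library totals. The cause of these changes was not tested. Crtc1+/+ eWAT against liver kept 8 calls throughout. The effect of depth was not tested, each group has 2 libraries, and genes at 3 counts or fewer cannot be ordered.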
